A study of Homo sapiens with 6 samples.

Results

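The genes described here are 44 parts of the interferon system: 4 interferon receptor chains, 4 transcription factors that act below them, and 36 interferon-stimulated genes. They were chosen by gene symbol from the 61533 gene rows of the count table, and all 44 symbols had a row. Of these, 37 had enough reads to be tested for a difference (7 of 8 receptors and factors and 30 of 36 stimulated genes). All libraries were made from MDA-MB-231, a human cell line from a triple-negative breast cancer. A control group of 3 libraries carried an empty vector and is labelled WT. The other group, of 3 libraries, carried shKDM2B, a short hairpin RNA that knocks down KDM2B, a DNA-binding subunit of a noncanonical Polycomb complex. All 6 came from cells in the same culture medium, with no interferon named in the labels, and total RNA was sequenced after ribosomal RNA was depleted. The labels call the replicates biological without naming separate cultures, and do not say whether the knockdown cells were a pool or a clone. Each p-value below thus rests on library-to-library spread alone, and part of that may be technical. No control hairpin is named, and all shKDM2B columns carry the same code. Loss of KDM2B and other effects of a hairpin therefore cannot be told apart here.

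Interferons are secreted proteins that warn cells of infection. Type I interferons bind the receptor chains IFNAR1 and IFNAR2, and interferon gamma binds IFNGR1 and IFNGR2. The receptors switch on JAK kinases, which phosphorylate STAT proteins. A complex that holds STAT2 and IRF9 then binds the interferon-stimulated response element in the promoters of target genes, while interferon gamma acts mainly through a different site, the gamma-activated site. Many tumour lines keep a low level of stimulated gene expression without added interferon.

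KDM2B, the target of the hairpin, was counted 589, 714 and 902 times in the empty vector libraries and 153, 166 and 224 times in the shKDM2B libraries, which left 23.1% of its control level (log2 fold change -2.12, SE 0.08, adjusted p 8.77e-11). Library totals ran from 10190149 to 15737951 counts, so that a count of 0 allows up to 3 counts, or 0.191 to 0.294 CPM (library-scaled counts, per 1e6 counts) over the 6 libraries, for counting error only. As a check of the labelled cell type, the mesenchymal markers VIM and CD44 were abundant in both groups but moved with the knockdown. VIM fell from 1336, 1239 and 1323 to 403, 397 and 417 CPM (log2 fold change -1.68, SE 0.04, adjusted p 1.43e-12), and CD44 rose by 0.20 on the log2 scale (SE 0.07, adjusted p 0.0309). The hormone receptor genes ESR1 and PGR had at most 4 counts in any library, while the epithelial gene EPCAM was at 7.96 to 12.4 CPM and did not pass the test (log2 fold change 0.16, SE 0.17, adjusted p 0.418). Of 10 leukocyte markers none passed the filter on low counts, and CD3E, MS4A1, LYZ and LILRA4 were at 0 in all 6 libraries. The summed level of the 10 was 0.194 to 0.381 CPM in empty vector and 0.875 to 1.11 CPM in shKDM2B libraries, most of it from CD14. The summed level of 6 fibroblast markers, none of which passed the filter, was 0.194 to 0.362 CPM in empty vector and 0.194 to 0.701 CPM in shKDM2B libraries. Mitochondrially encoded genes took 0.0767 to 0.151% of counts in empty vector and 0.196 to 0.476% in shKDM2B libraries. The nuclear RNA MALAT1 took 0.0958 to 0.107% and 0.246 to 0.311%, again without overlap. The part of these marker, mitochondrial and MALAT1 shifts in the results below was not tested.

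Most of the stimulated genes share the response element in their promoters, so the sequences are shown first, to set genes of either direction side by side. RefSeq promoter windows of 300 bases (250 before to 50 after a gene start, GRCh38.p14) were found for 34 of the 44 genes. The 10 without a window were IFNAR2, IRF7, IFIT2, OAS2, OASL, MX2, GBP2, USP18, IFITM2 and TRIM22. The motif and CG counts therefore leave out these genes, among them OAS2, OASL and GBP2, which fell at least 2-fold. The element was searched on both strands as the 9 letters GAAANNGAA with a further A at the 3′ end, where N is any base. It was present in 22 of 28 stimulated genes with a window (78.6%) and in 0 of 6 receptors and factors, against 4.38% of all 27305 genes with a window. The stretches of 30 bases that follow are written 5′ to 3′ on the gene's strand, with the matches in capitals. Where the match lies on the opposite strand, the capitals show its reverse complement, and a match cut by the end of a stretch is shown in part. The first 5 are from genes whose counts fell in shKDM2B cells, the next 3 from genes whose counts rose and the last 2 from genes that did not pass the test.
IFIT1 (chr10:89392510-89392539, plus strand): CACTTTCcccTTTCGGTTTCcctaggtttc
GBP1 (chr1:89065316-89065345, minus strand): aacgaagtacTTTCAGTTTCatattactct
RSAD2 (chr2:6877622-6877651, plus strand): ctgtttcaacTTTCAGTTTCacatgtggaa
IFI44 (chr1:78649761-78649790, plus strand): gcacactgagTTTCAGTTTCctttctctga
IFIH1 (chr2:162318686-162318715, minus strand): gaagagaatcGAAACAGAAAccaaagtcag
DDX60 (chr4:168318786-168318815, minus strand): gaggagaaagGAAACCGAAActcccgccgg
IFITM3 (chr11:320876-320905, minus strand): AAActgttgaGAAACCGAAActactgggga
PARP14 (chr3:122680800-122680829, plus strand): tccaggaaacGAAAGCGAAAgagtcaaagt
ISG15 (chr1:1013374-1013403, plus strand): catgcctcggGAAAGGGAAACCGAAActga
HERC5 (chr4:88456984-88457013, plus strand): ctcattacagTTTCCTTTTCCTTTTCgatt
The same letters stood before genes that fell, rose or did not pass. Of the stimulated genes with a window, the element was found in 12 of 15 that fell, 3 of 3 that rose and 5 of 5 that did not pass the test. It was found in 2 of 5 that had too few reads to be tested.

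The receptors and factors rose while most of the stimulated genes below them fell. With KDM2B knocked down, 6 of the 7 tested receptors and factors were higher and 0 lower at an adjusted p under 0.05 (edgeR's quasi-likelihood test), where 30.5% of all 14071 tested genes were higher and 30.4% lower. Among the 30 tested stimulated genes, 19 were lower (63.3%), 4 higher (13.3%) and 7 did not pass. The median log2 fold change was 0.63 for the receptors and factors and -0.59 for the stimulated genes, beside -0.01 for all tested genes. Called in either direction were 29 of the 37 genes, where 60.9% of all tested genes were. In bulk RNA, fewer cells of a type and less RNA per cell cannot be told apart.

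**Figure D1:**
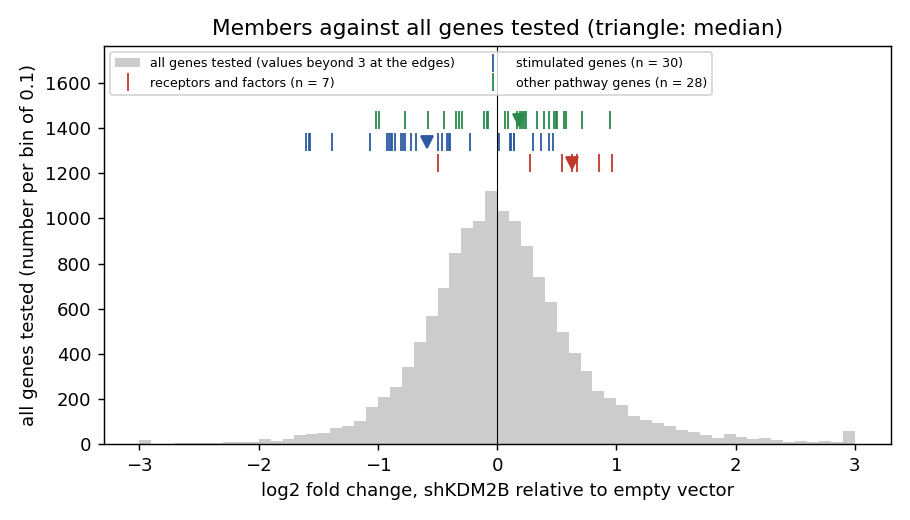
Log2 fold changes of shKDM2B relative to empty vector for all 14071 tested genes (grey histogram, number of genes per bin of 0.1, values beyond 3 placed at the edges) with the 7 receptors and factors, 30 stimulated genes and 28 other pathway genes as ticks and their medians as triangles; the heights of the tick rows have no meaning. The receptors and factors lie right of 0 except for 1 gene, IFNAR2, and the stimulated genes have their median at -0.59.

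The summed level of the 4 receptor chains was 147, 136 and 154 CPM in empty vector libraries 1 to 3 and 261, 264 and 258 CPM in shKDM2B libraries 1 to 3. The summed level of the 30 tested stimulated genes was 1431, 1518 and 1409 CPM against 1046, 1092 and 1050 CPM. Neither sum overlapped between the groups. Both sums are weighted to abundant genes. In empty vector libraries 1 to 3, IFNAR1 gave 92.2, 87.1 and 94.6 CPM of the receptor sum. The 4 IFIT genes gave 607, 614 and 592 CPM of the stimulated sum there.

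IFNGR1, the ligand-binding chain of the interferon gamma receptor, rose most among the receptors. It was at 28.3, 26.1 and 32.6 CPM in the empty vector libraries and 53.8, 60.1 and 56.3 CPM in the shKDM2B libraries. Every shKDM2B library lay above every control library, a 1.95-fold increase (log2 0.96, SE 0.08, adjusted p 2.24e-07). The gene (ENSG00000027697.15) spans 137197484 to 137219449 of chromosome 6, minus strand, in GENCODE 29 (GRCh38). Its partner chain IFNGR2 was at 24.8, 21.0 and 24.5 CPM in controls and 37.3, 38.7 and 36 CPM after knockdown, again without overlap, for a log2 fold change of 0.67 (SE 0.08, adjusted p 8.36e-06). Of the exonic bases of IFNGR2, 12.8% overlap a gene on the opposite strand, TMEM50B.

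IFNAR1, a chain of the type I receptor, was the most abundant receptor transcript per length, at 14.5 CPM per kilobase of exon in empty vector cells. Its level was 92.2, 87.1 and 94.6 CPM in the controls and 168, 164 and 165 CPM in shKDM2B libraries. That is a 1.81-fold rise with no overlap (log2 fold change 0.86, SE 0.05, adjusted p 5.55e-09). The other type I chain, IFNAR2, went against the rest, with 1.85, 1.81 and 1.74 CPM in controls and 1.46, 1.14 and 1.24 CPM after knockdown. The groups did not overlap, but the log2 fold change of -0.49 (SE 0.26) had an adjusted p of 0.112. These levels rest on 13 to 24 counts per library. In GENCODE 29, 83.2% of the exonic bases of IFNAR2 are shared with a read-through gene, IFNAR2-IL10RB, which had 0 counts in all 6 libraries. The level of IFNAR2 is uncertain, as the sources used here do not say how reads in shared exons were counted. IFNAR1, IFNAR2 and IFNGR2 lie near each other on the plus strand of chromosome 21, between 33229901 and 33479348.

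**Figure D2:**
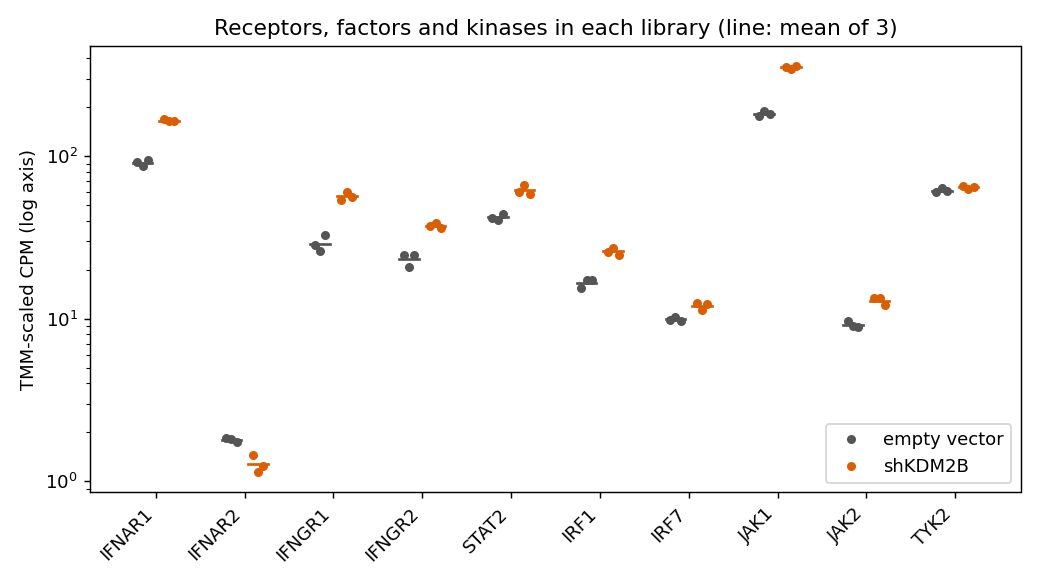
TMM-scaled CPM (log axis) of the tested receptors and factors and the 3 JAK kinases in each library, with empty vector in grey, shKDM2B in orange and a line at the mean of 3 libraries. The orange points lie above the grey ones for each gene shown except IFNAR2, where they lie below, and TYK2, where the groups overlap.

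Of the factors, STAT2, which joins IRF9 in the complex that binds the response element, was at 41.6, 40.4 and 44.2 CPM in controls and 60.5, 66.1 and 58.5 CPM in shKDM2B libraries. It rose 1.46-fold (log2 fold change 0.55, SE 0.07, adjusted p 8.06e-06). IRF1, a factor induced by interferon gamma, rose by a similar amount, from 15.5, 17.3 and 17.2 to 25.9, 27.3 and 24.6 CPM (log2 fold change 0.63, SE 0.09, adjusted p 2.77e-05). Of the exonic bases of IRF1, 22.0% overlap genes on the opposite strand, so its count may hold reads of those if strand was not used. Neither gene's groups overlapped.

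IRF7, the amplifier of type I interferon production, was at 9.82, 10.3 and 9.70 CPM in controls and 12.5, 11.3 and 12.2 CPM after knockdown. Its log2 fold change of 0.28 (SE 0.11) passed with an adjusted p of 0.0386. The call was lost in 8 of 14 alternative analyses, with an adjusted p of up to 0.376. Leaving out empty vector replicate 1 or 3 gave 0.0950 and 0.117, and leaving out shKDM2B replicate 1 or 3 gave 0.108 each. IRF9, the DNA-binding part of the STAT complex, did not pass the filter. It had 2, 0 and 5 counts in the controls and 3, 4 and 11 in shKDM2B libraries, and 48.4% of its exonic bases are shared with another gene model on the same strand.

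The kinases that join receptors to STATs come from a list of 43 further pathway genes, of which 28 were tested. JAK1, used by both receptor types, rose 1.93-fold, from 177, 189 and 182 CPM to 354, 344 and 358 CPM (log2 fold change 0.95, SE 0.05, adjusted p 9.26e-10). JAK2, which serves the interferon gamma receptor, rose from 9.63, 9.05 and 8.83 to 13.3, 13.4 and 12.1 CPM (log2 fold change 0.49, SE 0.11, adjusted p 0.00136). TYK2, which serves the type I receptor, did not pass, with a log2 fold change of 0.07 (SE 0.05, adjusted p 0.287) and overlapping groups.

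Turning to the stimulated genes, 4 of 4 IFIT genes were lower, where 30.4% of all tested genes were. IFIT proteins bind foreign RNA and block its translation, and the 4 genes lie side by side on chromosome 10 between 89283694 and 89421001. IFIT1 was at 152, 161 and 148 CPM in the controls and 82.8, 82.6 and 82.8 CPM in shKDM2B libraries (log2 fold change -0.89, SE 0.05, adjusted p 3.85e-09). The shKDM2B libraries were almost alike and far below every control. IFIT2 and IFIT5 fell by 0.88 and 0.47 on the log2 scale (SE 0.06 and 0.05), and 10.3% of the exonic bases of IFIT2 are shared with other genes. IFIT3, the most abundant stimulated gene per length in empty vector cells at 70.6 CPM per kilobase, fell least, from 189, 183 and 187 to 153, 167 and 156 CPM (log2 fold change -0.23, SE 0.05, adjusted p 0.00136). The IFIT3 decrease was not past the threshold when tested against a 1.2-fold change (adjusted p 0.679).

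To show the element in its setting, the 250 bases before the IFIT1 start are given (chr10:89392373-89392622, plus strand), with the 2 matches in capitals. They lie 116 to 107 and 103 to 94 bases before the start.
IFIT1: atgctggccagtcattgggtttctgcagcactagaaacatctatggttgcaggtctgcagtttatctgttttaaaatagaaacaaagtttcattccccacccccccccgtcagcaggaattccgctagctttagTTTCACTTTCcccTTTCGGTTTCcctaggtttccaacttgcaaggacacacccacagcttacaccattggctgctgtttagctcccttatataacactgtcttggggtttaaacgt

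The OAS genes, whose products make a small RNA-like messenger in answer to double-stranded RNA, were split. OAS2 was at 16.2, 15.7 and 15.9 CPM in controls and 4.76, 5.78 and 5.47 CPM after knockdown, a 2.97-fold decrease (log2 fold change -1.57, SE 0.12, adjusted p 4.65e-08). OASL, a family member without the synthetase activity, went from 107, 120.2 and 103 CPM to 41.9, 42.8 and 41.7 CPM (log2 fold change -1.39, SE 0.06, adjusted p 4.13e-10). OAS3, by contrast, was at 40.1, 41.9 and 42.4 CPM in controls and 44.6, 51.2 and 41.8 CPM in shKDM2B libraries. Its groups overlapped and it did not pass (log2 fold change 0.14, SE 0.08, adjusted p 0.136). OAS1, OAS3 and OAS2 follow each other on chromosome 12 between 112906777 and 113011723. OAS1 had too few reads for the main test, with 10, 9 and 9 counts in controls and 1, 1 and 2 after knockdown. Without the low-count filter it had an adjusted p of 2.37e-04, and it is the gene that raised the number of lower stimulated genes to 20 in that analysis.

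Among the large GTPases, the guanylate-binding proteins fell and the MX genes did not pass the test. GBP1, a classic target of interferon gamma, had the largest decrease of all 37 tested genes, 3.03-fold. It was at 29.2, 33.1 and 29.8 CPM in controls and 8.94, 10.5 and 10.7 CPM in shKDM2B libraries (log2 fold change -1.60, SE 0.10, adjusted p 7.23e-09). Its neighbour GBP2 on chromosome 1 went from 4.67, 5.14 and 4.92 to 2.72, 2.54 and 1.89 CPM (log2 fold change -1.07, SE 0.19, adjusted p 2.40e-04). MX1, which blocks viral ribonucleoproteins, was at 6.52, 9.33 and 6.52 CPM in controls and 6.71, 7.88 and 9.12 CPM after knockdown, with a log2 fold change of 0.11 (SE 0.17, adjusted p 0.590). MX2 had a log2 fold change of -0.39 (SE 0.22, adjusted p 0.140).

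RSAD2, which encodes viperin, an enzyme that makes a chain-terminating nucleotide, fell 2.99-fold. Its level was 25.2, 25.5 and 27.0 CPM in controls and 9.72, 7.53 and 8.79 CPM in shKDM2B libraries (log2 fold change -1.58, SE 0.10, adjusted p 1.38e-08). The groups were far apart. CMPK2, its head-to-head neighbour on chromosome 2 and a nucleotide kinase, did not pass the filter, with 6, 4 and 13 counts in controls and 7, 10 and 19 after knockdown.

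Of the ISG15 conjugation genes, 1 of 4 fell and 3 did not pass, where 30.4% of all tested genes were lower. ISG15, a ubiquitin-like protein, was at 45.2, 73.0 and 50.5 CPM in controls and 50.9, 65.9 and 53.4 CPM after knockdown. Empty vector replicate 2 and shKDM2B replicate 2 stood highest in their groups, and the groups overlapped, with a log2 fold change of 0.02 (SE 0.20, adjusted p 0.952). HERC5, the ligase that attaches ISG15, was at 84.5, 98.6 and 84.1 CPM and then 101, 94.6 and 94.2 CPM (log2 fold change 0.12, SE 0.07, adjusted p 0.138). Without empty vector replicate 2, HERC5 passed, with a log2 fold change of 0.19 and an adjusted p of 6.41e-04. USP18, which removes ISG15 and restrains the type I receptor, rested on 14 to 24 counts per library and had a log2 fold change of 0.14 (SE 0.26, adjusted p 0.676). HERC6, beside HERC5 on chromosome 4, fell by 0.40 on the log2 scale (SE 0.07, adjusted p 1.46e-04).

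**Figure D3:**
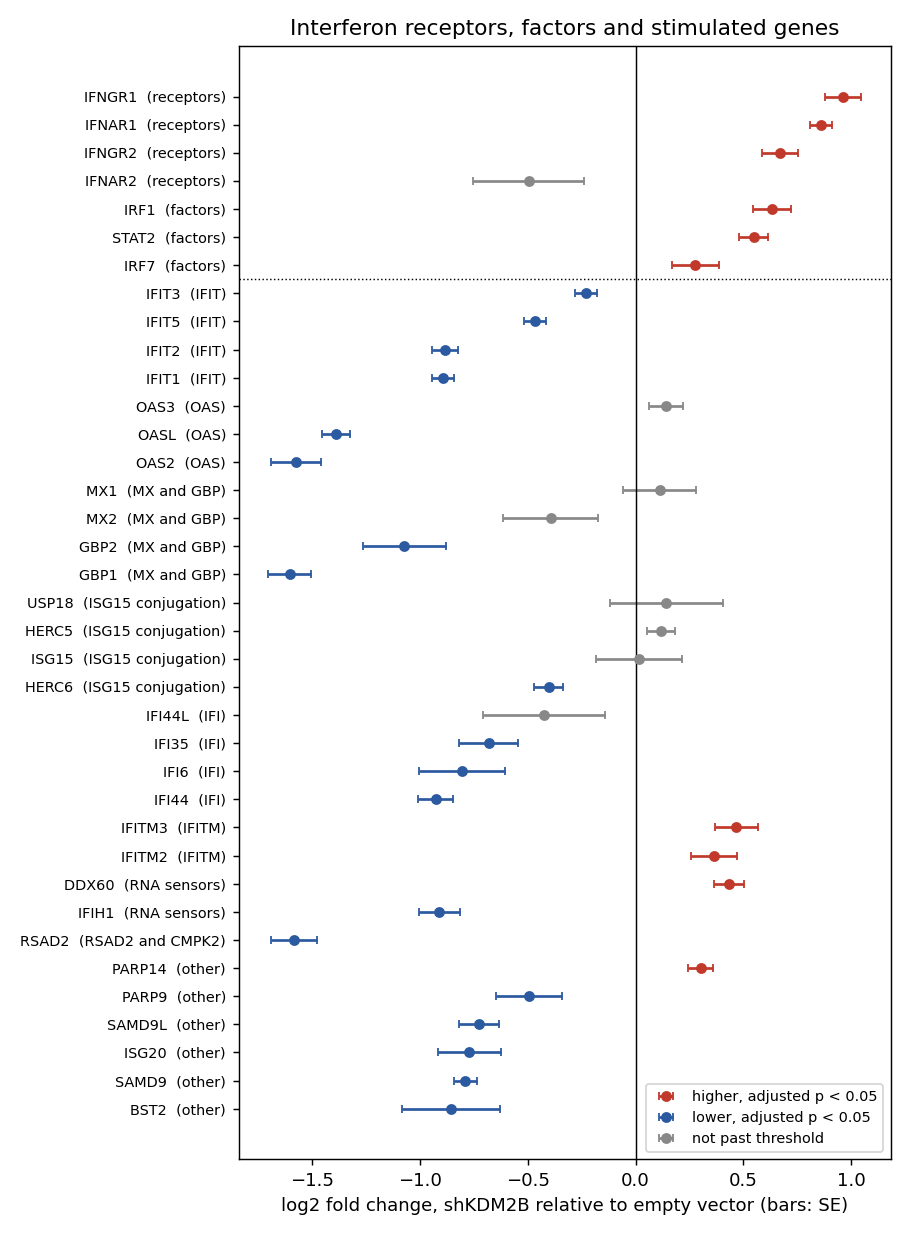
Log2 fold change of shKDM2B relative to empty vector for the 37 tested genes, in order of role, with bars of 1 SE and colour by test result. Above the dotted line, 6 of 7 receptors and factors are higher, and below it 19 of 30 stimulated genes are lower, from GBP1 at -1.60 to IFIT3 at -0.23.

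Of the IFI genes, IFI44 fell from 52.0, 61.9 and 53.1 to 30.2, 30.2 and 27.7 CPM (log2 fold change -0.92, SE 0.08, adjusted p 2.36e-07). IFI6, a mitochondrial and endoplasmic reticulum protein, fell by 0.80 on the log2 scale (SE 0.20), with empty vector replicate 2 at 11.6 CPM above the 6.71 and 7.46 CPM of the other controls. IFI35 fell by 0.68 (SE 0.14). IFI44L, beside IFI44 on chromosome 1, rested on 12 to 24 counts per library and did not pass (log2 fold change -0.42, SE 0.28, adjusted p 0.209). IFI27 had 0 to 5 counts and was not tested.

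The IFITM genes, which encode membrane proteins that hinder viral fusion, went the other way. IFITM3 rose from 34.7, 32.8 and 25.9 CPM to 44, 44.9 and 39.6 CPM, with no overlap (log2 fold change 0.47, SE 0.10, adjusted p 0.00101). IFITM2 went from 12.3, 13.2 and 10.9 to 15.2, 14.9 and 16.3 CPM (log2 fold change 0.36, SE 0.11, adjusted p 0.00908). Its call was lost without empty vector replicate 3 (adjusted p 0.0610) or shKDM2B replicate 3 (0.0544), and when tested against a 1.2-fold change (0.141). IFITM1 had 1 to 6 counts and was not tested. These genes are neighbours of the same family on chromosome 11, and IFITM1 and IFITM2 share exonic bases, so reads may have been split or lost between them. How alike the sequences of the family are was not measured. Of the exonic bases of IFITM3, 21.3% also overlap a gene on the opposite strand.

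The RNA sensors were divided. IFIH1, which encodes MDA5, a sensor of long double-stranded RNA, was at 28.2, 32.4 and 27.7 CPM in controls and 14.3, 15.9 and 16.4 CPM after knockdown (log2 fold change -0.91, SE 0.09, adjusted p 1.40e-06). DDX60, a helicase linked to RNA sensing, rose from 35.7, 37.6 and 38.9 to 49.0, 54.1 and 48.8 CPM (log2 fold change 0.43, SE 0.07, adjusted p 9.43e-05). Both pairs of groups were separate, in opposite directions.

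In the other stimulated genes, 5 of the 6 tested fell, where 30.4% of all tested genes were lower. SAMD9, a restriction factor of poxviruses, went from 116, 107 and 115 to 64.8, 64.3 and 66.2 CPM (log2 fold change -0.79, SE 0.05, adjusted p 1.61e-08). Its neighbour SAMD9L on chromosome 7 fell by 0.72 (SE 0.09). BST2, the tether of budding virions, and ISG20, an RNA exonuclease, fell by 0.85 (SE 0.23) and 0.77 (SE 0.15). PARP9 and PARP14, ADP-ribosylation genes near each other on chromosome 3, parted. PARP14 rose from 67.6, 72.6 and 69.6 to 84.7, 82.0 and 91.4 CPM (log2 fold change 0.30, SE 0.06, adjusted p 4.60e-04), though not past a 1.2-fold change (adjusted p 0.205). PARP9 fell by 0.49 (SE 0.15, adjusted p 0.0119), a call lost without empty vector replicate 3 (adjusted p 0.0589) or shKDM2B replicate 3 (0.0830), and when tested against a 1.2-fold change (0.0642). XAF1, with 0 or 1 count in each library, and TRIM22, with 2 to 6 counts, were not tested.

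**Figure D4:**
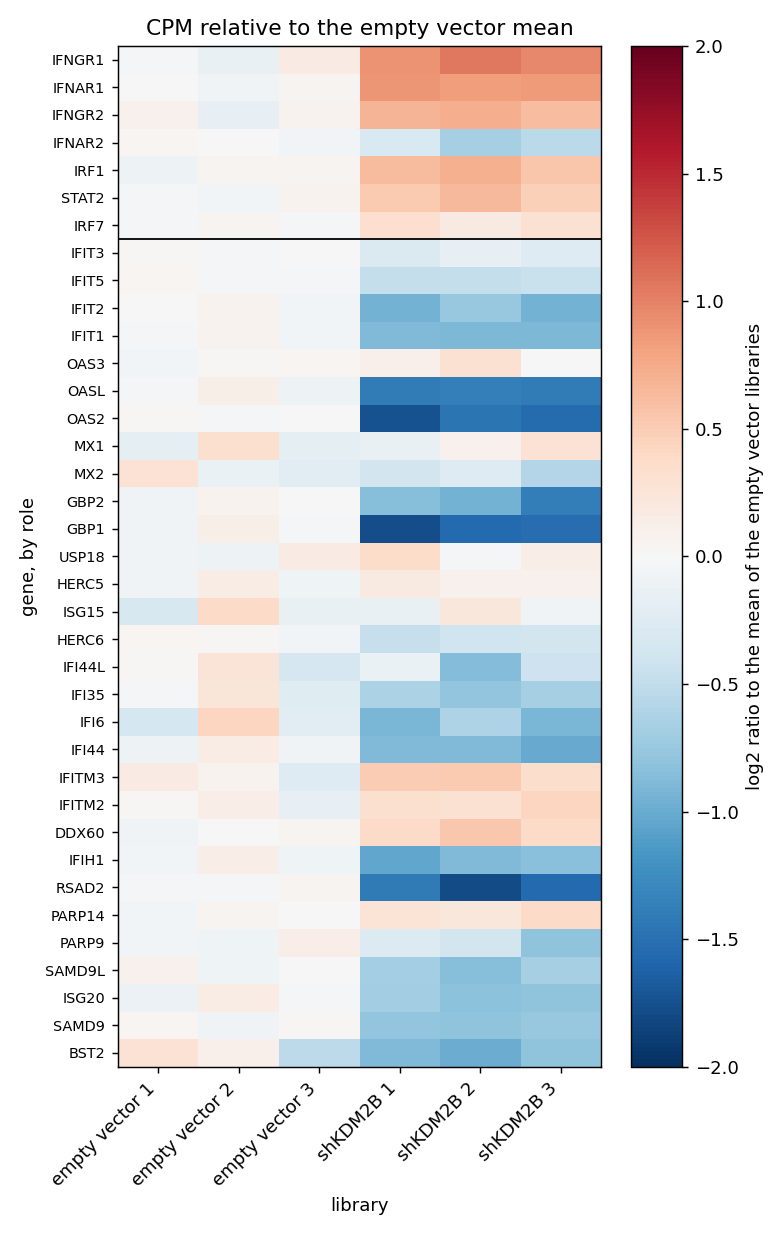
Log2 ratio of each library's CPM to the mean of the 3 empty vector libraries for the 37 tested genes (rows, by role, receptors and factors above the black line) in the 6 libraries (columns), red for higher and blue for lower. The 3 shKDM2B columns resemble each other in most rows, and the empty vector columns differ most in ISG15, IFI6, MX1 and BST2.

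Large decreases were more frequent than large increases among these genes. At least 2-fold lower and past the threshold were 5 of the 30 stimulated genes (GBP1, RSAD2, OAS2, OASL and GBP2), where 4.85% of all tested genes were. None of the 37 rose at least 2-fold, where 7.14% of all tested genes did. Tested against a 1.2-fold change, 17 stimulated genes were lower and 2 higher, and 5 receptors and factors were higher and 0 lower, where 18.9% of all tested genes were lower and 19.9% higher. The groups did not overlap for 31 of the 37 genes, where 65.5% of all tested genes had separate groups.

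The order of levels per length changed with these shifts. In empty vector cells the highest of the tested genes were IFIT3, ISG15, IFIT2, IFIT1 and OASL, at 70.6, 59.8, 42.2, 33.3 and 31.3 CPM per kilobase. In shKDM2B cells ISG15 and IFIT3 were level at 60.3 and 60.2, followed by IFITM3 at 31.8 and IFNAR1 at 26.3. IFIT1 and OASL were then at 17.9 and 12.0 CPM per kilobase. Lowest in both groups were MX2 and IFI44L, at 0.232 and 0.187 in empty vector cells. Exon lengths are those of all annotated transcripts together, which understates the level of genes with long alternative exons.

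Of the 43 further pathway genes, 28 were tested: 10 were higher (35.7%), 7 were lower (25.0%) and 11 did not pass, shares near the 30.5% and 30.4% of all tested genes. Their median log2 fold change was 0.18. None of the 9 interferon genes examined (IFNA1, IFNA2, IFNB1, IFNG, IFNE, IFNK, IFNL1, IFNL2 and IFNL3) passed the filter. IFNA2, IFNB1, IFNG and IFNE were at 0 in every library, and the highest count of the others was 3, for IFNL1. IFNL1 had 1 to 3 counts in every library, and IFNK had 1 and 2 counts in shKDM2B libraries 1 and 2. At this depth no difference in these ligands could be tested.

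Sensors and adaptors went both ways, with 6 of 14 tested higher and 4 lower, where 30.5% and 30.4% of all tested genes were. TLR3, the endosomal sensor of double-stranded RNA, fell from 7.97, 5.71 and 7.60 to 3.11, 3.33 and 3.97 CPM (log2 fold change -1.02, SE 0.18, adjusted p 1.89e-04). AIM2, a sensor of cytosolic DNA, fell from 4.86, 4.76 and 4.56 to 1.94, 2.28 and 2.73 CPM (log2 fold change -0.99, SE 0.19). EIF2AK2, the RNA-activated kinase PKR, and MAVS, the mitochondrial adaptor of MDA5, fell by 0.77 (SE 0.06) and 0.58 (SE 0.06). Of the 6 tested brakes on JAK and STAT signalling, 1 rose and 3 fell, where 30.5% of all tested genes rose and 30.4% fell. Those that fell were PIAS1, a SUMO ligase that inhibits STATs, and the phosphatase genes PTPN1 and PTPN11, by 0.34 (SE 0.07), 0.32 (SE 0.05) and 0.30 (SE 0.04) on the log2 scale. Tested against a 1.2-fold change, 0 of these 3 were lower. Of the exonic bases of PIAS1, 32.3% overlap genes on the opposite strand. The 1 that rose was SOCS3, an inhibitor of JAK kinases, with a log2 fold change of 0.56 (SE 0.05, adjusted p 4.05e-07). These 4 genes were chosen after their values were seen.

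A further feature of the promoters differed between receptors and stimulated genes. KDM2B binds unmethylated CG dinucleotides, so these were counted in the same windows of 300 bases, taking the window with most where a gene had several. The 6 receptors and factors with a window had a median of 29.5 CG (7 to 44), the 28 stimulated genes a median of 8.5 (0 to 45), and all 10410 tested genes with a window a median of 28. Within the stimulated genes, the 3 that rose (IFITM3, DDX60 and PARP14) had 8, 11 and 19, and the 15 that fell had a median of 8.0. RSAD2 had the most, 45, in a window shared in part with CMPK2 that holds no match, while its match lies in another window with 4 CG. These counts describe the windows only, with no measure of KDM2B binding or methylation. As an example of a CG-rich receptor promoter without the element, the 250 bases before the IFNGR2 start are given (chr21:33403163-33403412, plus strand), with its 37 CG in capitals.
IFNGR2: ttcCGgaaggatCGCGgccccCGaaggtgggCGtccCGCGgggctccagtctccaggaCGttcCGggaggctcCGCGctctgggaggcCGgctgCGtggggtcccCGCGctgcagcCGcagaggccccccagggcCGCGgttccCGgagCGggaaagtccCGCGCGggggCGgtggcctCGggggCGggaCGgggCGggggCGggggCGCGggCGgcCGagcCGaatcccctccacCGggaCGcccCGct

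**Figure D5:**
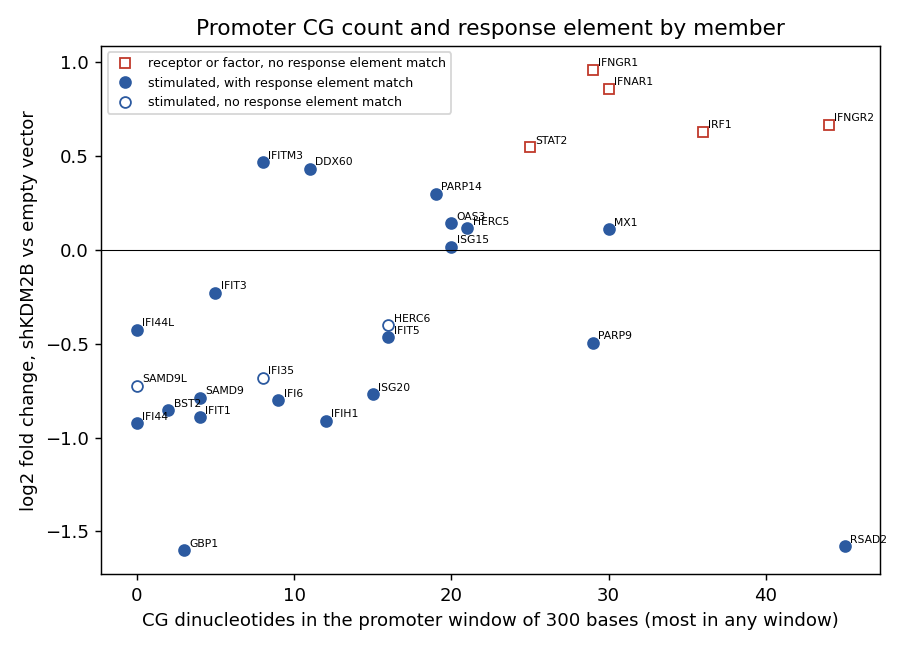
Log2 fold change (vertical axis) against the number of CG dinucleotides in the promoter window of 300 bases (horizontal axis, the window with most) for the tested members with a window, with receptors and factors as red squares, stimulated genes as blue circles, and filled symbols where the response element matched. The receptors and factors have 25 to 44 CG and no match, while the stimulated genes have 0 to 21 CG, except PARP9 at 29, MX1 at 30 and RSAD2 at 45.

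Over all tested genes, the shares called in each direction were close with and without the element. Of the 417 tested genes with the element in a window, 32.9% were lower and 31.4% higher, and of the 9993 without it 31.6% were lower and 31.8% higher. For the 397 genes with the element that are not members, the median log2 fold change was 0.00327. The gamma-activated site, searched as TTCNNNGAA on both strands, was in 8 of 28 stimulated genes (28.6%) and 2 of 6 receptors and factors (IRF1 and IRF9), against 9.38% of all genes with a window. A stretch can hold this site and part of the response element, since both contain GAA.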

How the data were processed

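The deposited table holds raw read counts per gene from RNA-seq of 6 libraries, 3 empty vector and 3 shKDM2B. Tools listed in the submitters' processing notes are STAR, Trim Galore, featureCounts, limma, edgeR and DESeq2, with the genome build GRCh38. The sources used here do not give their versions or roles, the annotation release, the strand setting or the handling of multi-mapping reads. Knockdown columns carry an unexplained code and were taken as shKDM2B, the only hairpin group. Of 61533 gene rows, 61369 matched a symbol. Coordinates and exon lengths are from GENCODE 29, and promoter windows from RefSeq (GRCh38.p14).

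Genes with low counts were removed by filterByExpr (count of 10, total of 15), and counts were scaled by TMM and tested two-sided in R 4.3.3 with the robust quasi-likelihood test of edgeR 4.0.16, with Benjamini-Hochberg adjustment over 14071 genes; genes with an adjusted p under 0.05 were called. Positive log2 fold changes mean higher in shKDM2B; SE was the fold change divided by the root of F. Fold changes of members were described by counts and medians. Named genes were all tested receptors and factors, the 8 largest decreases and up to 6 largest increases among called stimulated genes (only 4 rose), the most abundant tested gene of each family, KDM2B, 6 pathway genes with the largest changes (mean CPM at least 1) and the JAK kinases; the remaining members are given in brief, and some pathway genes are not reported here. The members and lists were chosen with earlier results of these data known. The scripts were tested on simulated counts. Within each group, each pair of libraries differed by more than sampling noise (chi-square divided by its degrees of freedom, 1.89 to 8.74), so none was counted as a copy. Alternatives were other scalings and filters, DESeq2 (1.42.0), limma-voom (limma 3.58.1), a test against a 1.2-fold change, a replicate block and leaving out each library.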

Additional observations from a re-analysis of the deposited data

How the results depend on the processing

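Of the 29 members that changed, 24 were called in all 14 alternatives; IRF7, IFIT3, IFITM2, PARP9 and PARP14 were lost in at least 1, with values given beside each. The sign of the log2 fold change moved in 2 members, MX1 and ISG15, neither of which passed in any alternative. Tested against a 1.2-fold change, 2 stimulated genes were higher (4 in the main analysis), 4 further pathway genes lower (7), and 2797 of all tested genes higher and 2661 lower (4288 and 4283); this test asks for a larger change by construction. DESeq2 called 3817 genes higher and 3757 lower. With 1 library left out, receptors and factors called higher were 5 to 6, stimulated genes lower 18 to 19 and higher 3 to 5, further pathway genes higher 8 to 10, and all genes higher 3798 to 4546 and lower 3768 to 4582. Other scalings left the median of all genes between -0.02 and -0.01. A looser response element (GAAANNGAA) was in 23 stimulated genes in place of 22 and in 0 receptors and factors.

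The shared replicate numbers were not taken as pairs: same-numbered libraries of the 2 groups had correlated deviations of 0.118, -0.0258 and 0.0751, and not every library correlated best with its own number. With the replicate block, 4249 genes were higher and 4230 lower, and 5 receptors and factors, 4 higher and 19 lower stimulated genes were called; IRF7 then had an adjusted p of 0.0600. Depth limits the 7 untested members and those with under 25 counts per library (IFNAR2, USP18, IFI44L), for which a p that misses the threshold does not show that levels were alike. Of the untested members, IRF9, IFITM1 and XAF1 also share 48.4%, 32.5% and 38.3% of exonic bases with other genes. Reads may have been lost there.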
